A study of Mus musculus with 65 samples.

Results

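Of 10729 LDB1 peaks called in untreated LDB1-AID cells on chromosomes 1 to 19 and X, 794 (7.40%) shared at least 1 bp with a CTCF peak of the same cells. These 794 LDB1 sites on CTCF are the subject here, and the remaining 9935 LDB1 peaks without CTCF serve as their comparison. The sites were chosen by the measured positions of LDB1 and CTCF, so their number and their distance to CTCF are descriptions and carry no test. The cells are erythroblasts of the mouse line G1E-ER4, and its sublines were profiled by chromatin immunoprecipitation and sequencing (ChIP-seq). In the LDB1-AID subline, LDB1 carries an auxin-inducible degron, a tag that lets auxin trigger degradation of the protein, and in the SMC3-AID subline the tagged protein is SMC3. Untreated cells carry the tagged protein too, and treated cells received auxin for 4 h. Sets used from untreated LDB1-AID cells were LDB1 (10729 peaks), CTCF (54223), RAD21 (33160) and YY1 (12816), and from auxin-treated LDB1-AID cells LDB1 (1043). From SMC3-AID cells they were LDB1 (8585 untreated, 7237 after auxin) and RAD21 (15223 untreated, 24 after auxin).

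LDB1 is a cofactor that does not bind DNA itself. In erythroid cells it is brought to enhancers and promoters by the DNA-binding proteins GATA1 and TAL1, and it can hold distant elements together through contacts between LDB1 molecules. CTCF is a zinc finger protein that binds a long DNA motif and stops the cohesin ring, of which RAD21 and SMC3 are subunits, as the ring moves along chromatin. YY1 is a zinc finger transcription factor found mostly at promoters and enhancers.

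Each deposited set is 1 list of 400 bp intervals in which the replicates of a group had been combined, 2 for each LDB1-AID set and 3 for each SMC3-AID set. The lists carry no score and no read depth. A site is therefore present in a set or not, no spread between replicates can be given, and a site missing from a shorter list may have been bound below the unknown calling limit. Intervals and p-values below treat peaks as single observations and cover counting error only. Shares carry Wilson 95% intervals, and p-values come from Fisher's exact test, two-sided, adjusted by the Benjamini-Hochberg method over 16 odds ratios, of which 6 passed 0.05.

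LDB1 midpoints were spread over the range that the overlap rule allows and were not gathered at the CTCF midpoint. An even spread up to the limit of overlap would also put most midpoints away from that of CTCF. The distances below therefore do not show a preferred place beside CTCF. The median distance between LDB1 and CTCF midpoints was 192 bp (95% interval of the median 182 to 209), with quartiles of 103 and 289 bp and a range of 0 to 398 bp. Counted in steps of 50 bp from the CTCF midpoint, the sites numbered 79, 106, 125, 101, 103, 96, 91 and 93. The fullest step was thus 100 to under 150 bp away, and the step at the centre held the fewest. At 188 sites (23.7%) the midpoints lay within 100 bp of each other, and at 2 sites they coincided. CTCF lay on the side of higher coordinates at 390 sites and on the side of lower coordinates at 402. One site met 2 CTCF peaks, and the 794 sites accounted for 795 CTCF peaks.

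The limit of 1 bp cut through a continuous distribution. Sites sharing 1 to 9 bp with CTCF numbered 16, and 14 further LDB1 peaks ended within 9 bp of a CTCF peak without touching it. Just outside the limit, the steps of 50 bp from 400 to 600 bp held 75, 79, 65 and 80 LDB1 peaks. The 794 peaks below 400 bp compared with 479 in the equally wide range of 800 to under 1200 bp, a ratio of 1.66 (95% interval 1.48 to 1.86). RAD21 gave a ratio of 67.3 (60.9 to 74.2), and YY1 a ratio of 3.11 (2.86 to 3.39). In the LDB1 set of untreated SMC3-AID cells it was 1.36 (1.20 to 1.55). LDB1 was thus only moderately denser on CTCF than a short way off it, while RAD21 was concentrated there.

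The shape of the distribution also separated LDB1 from cohesin. RAD21 peaks that overlapped CTCF lay a median of 55 bp from it, with 75.4% within 100 bp. YY1 peaks on CTCF, at a median of 168 bp with 29.7% within 100 bp, were spread nearly as widely as LDB1. The LDB1 peaks on CTCF in untreated SMC3-AID cells, a separate list, had a median of 194 bp with 21.2% within 100 bp.

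**Figure D1:**
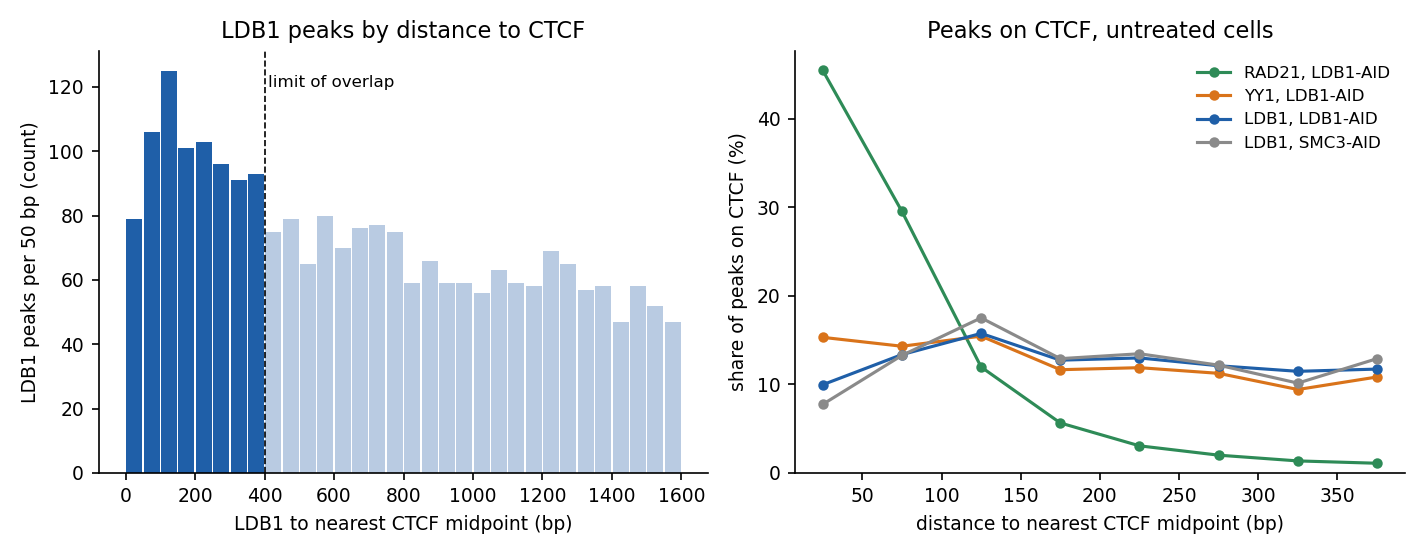
Left: number of untreated LDB1-AID LDB1 peaks per 50 bp of distance to the nearest CTCF midpoint, with the 794 sites on CTCF in dark blue and peaks beyond the overlap limit in pale blue. Right: for peaks that overlap CTCF, the share of each set in each step of 50 bp; RAD21 is piled up near 0 bp, while YY1 and LDB1 are spread more evenly, with LDB1 in both sublines lowest in the step at 0 bp and highest at 100 to under 150 bp.

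Cohesin was present at most of the sites. RAD21 overlapped 537 of the 794 (67.6%, 64.3 to 70.8) against 2160 of 9935 LDB1 peaks without CTCF (21.7%, 20.9 to 22.6), an odds ratio of 7.52 (6.43 to 8.79, adjusted exact p = 7.95e-152). Over all LDB1 peaks the share with RAD21 was 25.1%. Because RAD21 sits close to CTCF, an interval that touches CTCF is also within reach of its RAD21 peak. When only RAD21 midpoints within 100 bp of the LDB1 midpoint were counted, an alternative chosen after seeing the data, the shares were 29.2% and 13.4%, an odds ratio of 2.66. With the RAD21 set of untreated SMC3-AID cells, RAD21 was present at 231 sites (29.1%) and at 2.75% of the other LDB1 peaks, where the share over all LDB1 peaks was 4.7%.

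The share with RAD21 was highest on CTCF and lower within a short distance of it. It was 70.8% (66.2 to 75) for LDB1 peaks under 200 bp from the CTCF midpoint and 64.2% (59.3 to 68.9) at 200 to under 400 bp. Outside the overlap it was 29.8% (26.3 to 33.6) at 400 to under 800 bp and 20.5% (18 to 23.2) at 800 to under 1600 bp. Farther out it stayed near that level up to 20000 bp, at 20.1% and 19.6%, and was 25.8% (24.0 to 27.7) beyond. The change at the limit itself was small, since 47.3% of the 93 sites at 350 to under 400 bp had RAD21 against 42.7% of the 75 LDB1 peaks at 400 to under 450 bp. Among the sites, RAD21 did not differ past the threshold between those near and those far from CTCF, at 66.5% of the 188 sites within 100 bp and 68.0% of the other 606 (odds ratio 0.934, 0.660 to 1.32, adjusted exact p = 0.825). That interval leaves room for a moderate difference in either direction. In steps of 100 bp from CTCF the shares were 66.5%, 74.3% (68.3 to 79.6), 69.8% and 58.2% (50.9 to 65.0). The split at 100 bp does not show the lower share in the last step.

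**Figure D2:**
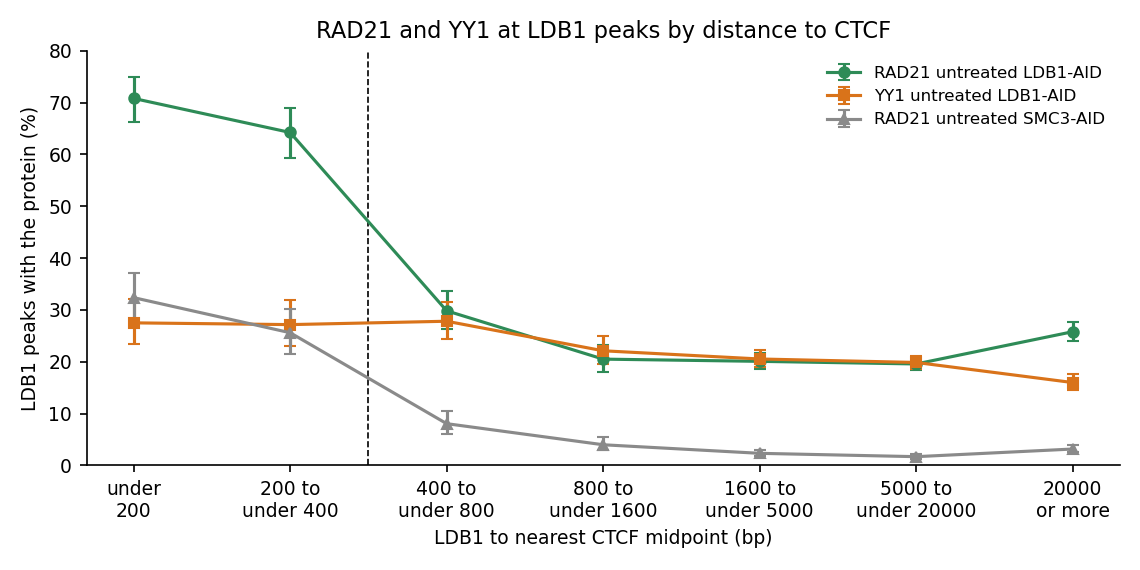
Share of untreated LDB1-AID LDB1 peaks that overlap RAD21 or YY1, by distance to the nearest CTCF midpoint; bars are Wilson 95% intervals and the dashed line marks the limit of overlap with CTCF. RAD21 drops from 70.8% to 20.5% at 800 to under 1600 bp and is 25.8% beyond 20000 bp. At the same distances YY1 changes from 27.5% to 22.1% and is 16.0% beyond 20000 bp.

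YY1 overlapped 217 sites (27.3%, 24.3 to 30.5) against 19.9% of the other LDB1 peaks (19.1 to 20.7) and 20.4% of all LDB1 peaks, an odds ratio of 1.52 (1.29 to 1.79, adjusted exact p = 3.69e-06). LDB1 peaks just outside the overlap, at 400 to under 800 bp from the CTCF midpoint, had YY1 at 27.8% (24.4 to 31.5). A similar share was thus seen without overlap with CTCF. The difference from the other LDB1 peaks was not seen among peaks of equal RAD21 status, which is itself tied to CTCF overlap. With RAD21, YY1 was at 32.6% of the sites and at 36.6% of other LDB1 peaks. Without RAD21, the shares were 16.3% and 15.2%. The odds ratio stratified by RAD21 was 0.895 (0.753 to 1.06), on the other side of 1. YY1 showed no difference with offset past the threshold, at 28.2% of sites within 100 bp and 27.1% of the rest (odds ratio 1.06, 0.735 to 1.52, adjusted exact p = 0.831).

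Together the 2 proteins divided the sites into 4 classes. RAD21 without YY1 was the largest class, with 362 sites (45.6%). Neither protein was present at 215 (27.1%), both were present at 175 (22.0%), and YY1 without RAD21 was found at 42 (5.29%). Among LDB1 peaks without CTCF the same classes took 13.8%, 66.4%, 7.96% and 11.9%, so that neither protein was the commonest case there. Median offsets to CTCF were 222 bp (183 to 241) with neither protein, 184 bp (165 to 201) with RAD21 only, 201 bp (134 to 242) with YY1 only and 196 bp (163 to 217) with both. The intervals of all 4 medians overlapped.

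RAD21 midpoints tended to lie nearer to CTCF. YY1 midpoints lay more often nearer to LDB1, the side that the counting rule given below favours. The comparison used sites whose LDB1 and CTCF midpoints lay more than 100 bp apart. At 412 such sites with RAD21, the RAD21 midpoint was nearer to CTCF at 263 (63.8%, 59.1 to 68.3), and it lay a median of 90.5 bp from CTCF and 148 bp from LDB1. At 164 such sites with YY1, the YY1 midpoint was nearer to LDB1 at 107 (65.2%, 57.7 to 72.1), a median of 140.5 bp from LDB1 and 234 bp from CTCF. RAD21 lay between or at the LDB1 and CTCF midpoints at 286 of the 412 sites (69.4%, 64.8 to 73.7). YY1 lay between them at 62 of the 164 (37.8%, 30.7 to 45.4), beyond LDB1 at 76 and beyond CTCF at 26. The pattern held with midpoints more than 200 bp apart, where RAD21 was nearer to CTCF at 157 of 246 sites and YY1 nearer to LDB1 at 72 of 104. RAD21 and YY1 were counted here only where they overlapped the LDB1 interval, which bounds their distance to LDB1 and not to CTCF. This rule by itself favours positions nearer to LDB1, so the YY1 share cannot be told apart from its effect. Of 565 sites with RAD21 on the LDB1 or the CTCF interval, 528 had it on both, 28 on the CTCF interval alone and 9 on the LDB1 interval alone. For YY1 the corresponding numbers were 183, 19 and 34 of 236.

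**Figure D3:**
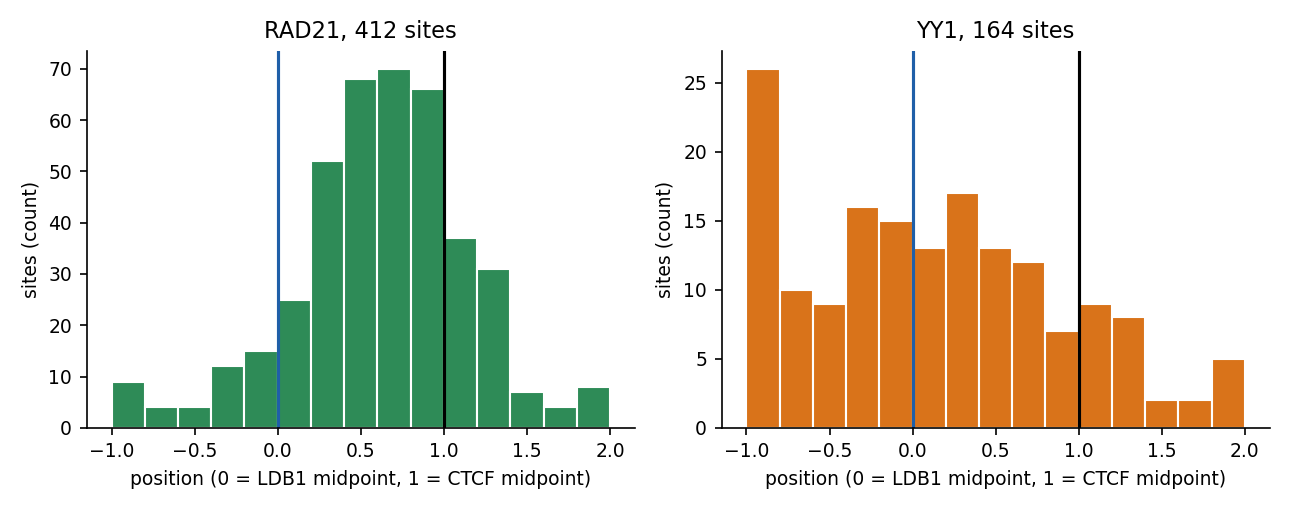
Position of the RAD21 midpoint (412 sites) and the YY1 midpoint (164 sites) along the line from the LDB1 midpoint (0, blue) to the CTCF midpoint (1, black), for sites with more than 100 bp between them; values beyond the axis are collected in the end bars. RAD21 is densest between the 2 midpoints on the CTCF side, and YY1 is spread around LDB1 and beyond it. Both were counted only where they overlap the LDB1 interval, which favours positions near LDB1.

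Seen from CTCF, peaks with LDB1 differed from other CTCF peaks in both partners. RAD21 was at 556 of the 795 CTCF peaks with LDB1 (69.9%, 66.7 to 73.0) and at 49.2% of the 53428 without, an odds ratio of 2.41 (2.07 to 2.80, adjusted exact p = 2.77e-31), where all CTCF peaks gave 49.5%. In the RAD21 set of untreated SMC3-AID cells the shares were 29.9% and 25.8%, with 25.9% of all CTCF peaks, and the odds ratio was 1.23. Of CTCF peaks with RAD21 in LDB1-AID cells, RAD21 was found again in SMC3-AID cells at 42.1% (38.1 to 46.2) with LDB1 and at 50.7% (50.1 to 51.4) without. The difference in cohesin between the CTCF peaks was thus smaller in the second subline, whose RAD21 list holds fewer peaks.

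YY1 was also more frequent at CTCF peaks with LDB1. It was at 202 of 795 (25.4%, 22.5 to 28.5) against 3.72% of the other CTCF peaks and 4.04% of all CTCF peaks, an odds ratio of 8.80 (7.46 to 10.4, adjusted exact p = 9.81e-101). Stratified by RAD21, an alternative chosen after seeing the data, the odds ratio was 7.62. At CTCF peaks with RAD21, YY1 was present at 30.2% with LDB1 and 5.38% without, and at CTCF peaks without RAD21 at 14.2% and 2.13%. Cohesin also sat slightly farther from CTCF where LDB1 was present. The median RAD21 distance was 74.5 bp (65 to 84) at CTCF peaks with LDB1 and 55 bp (54 to 56) at those without. In SMC3-AID cells the corresponding medians were 64 bp (57 to 71) and 66 bp (65 to 68), so the shift did not appear in that list.

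In the other subline, LDB1 was found again at 505 of the 794 sites without treatment (63.6%, 60.2 to 66.9), against 67.3% (66.4 to 68.2) of LDB1 peaks without CTCF and 67% of all LDB1 peaks. The odds ratio was 0.849 (0.730 to 0.987), and its adjusted p of 0.0780 missed the threshold of 0.05. Since the sites carried RAD21 more often, the comparison was repeated within classes of RAD21 and YY1. The stratified odds ratio was 0.632 (0.539 to 0.742, Mantel-Haenszel chi-square test, adjusted p = 5.73e-08). The RAD21 classes are not alike on and off CTCF. Where RAD21 was present, its midpoint lay within 100 bp of LDB1 at 43.2% of the sites and 61.7% of other LDB1 peaks. The stratified value cannot tell overlap with CTCF apart from this difference. Each class gave a lower share on CTCF, with intervals that overlapped for neither protein and for YY1 only. It was 56.3% against 62.9% with neither protein, 65.5% against 75.7% with RAD21 only, 69.0% against 71.7% with YY1 only and 67.4% against 82.6% with both. LDB1 peaks just outside the limit were found again at 71.7% (400 to under 800 bp), compared with 62.5% under 200 bp and 64.8% at 200 to under 400 bp. Farther out the share fell to 67.3% (65.8 to 68.8) at 5000 to under 20000 bp and 62.4% (60.3 to 64.4) beyond. A share as low as that of the sites was thus also seen at the LDB1 peaks farthest from CTCF.

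Within the sites, none of 3 comparisons of this share passed the threshold. The share found again was 66.1% with RAD21 and 58.4% without (odds ratio 1.39, 1.02 to 1.89, adjusted exact p = 0.0806). It was 67.7% with YY1 and 62.0% without (odds ratio 1.28, 0.923 to 1.79, adjusted exact p = 0.212), and 59.0% within 100 bp of CTCF and 65.0% farther away (odds ratio 0.776, 0.555 to 1.08, adjusted exact p = 0.205).

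Where LDB1 was found in both sublines, it mostly stood in nearly the same place relative to CTCF. The LDB1 midpoints of the 2 sublines were a median of 27 bp apart (quartiles 12 and 50), close to the 25 bp of LDB1 peaks without CTCF, and 466 of the 505 pairs (92.3%) lay within 100 bp. In the SMC3-AID list 486 of the 505 (96.2%) still overlapped the same CTCF peak. At sites more than 100 bp from CTCF, LDB1 was on the same side of CTCF in both sublines at 388 of 394 (98.5%, 96.7 to 99.3). The signed offsets correlated across the 505 sites with Pearson's r of 0.952, given as a description since both offsets share 1 CTCF position and the overlap bounds them.

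**Figure D4:**
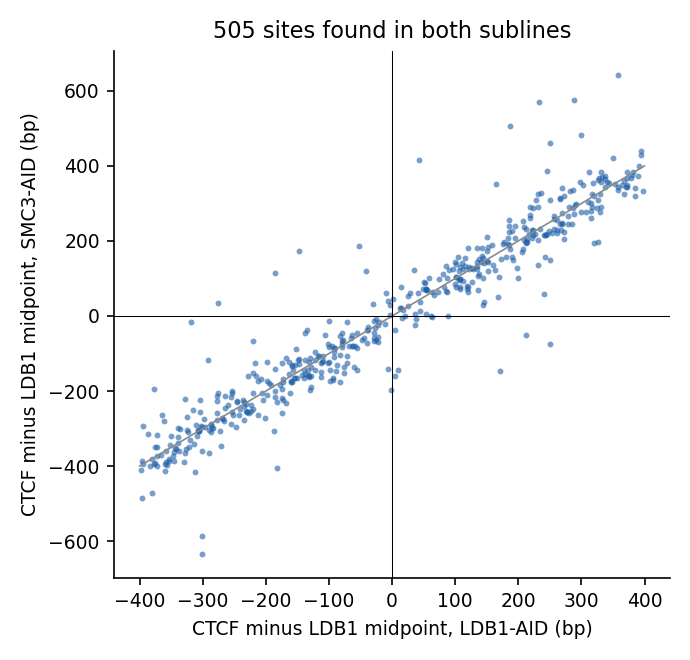
Signed distance from the LDB1 midpoint to the CTCF midpoint in untreated LDB1-AID cells (horizontal) and untreated SMC3-AID cells (vertical) at the 505 sites found in both, 1 point per site; the grey line marks equal values. Most points follow the line, and 466 lie within 100 bp of it, measured vertically.

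After degradation of SMC3 most of the LDB1 peaks at the sites were called again. RAD21 was present at 231 sites in untreated SMC3-AID cells and at 0 of 794 after auxin. A count of 0 allows a share of up to 0.378% by a limit of 3 counts, and the Wilson upper limit is 0.481%. The RAD21 list after auxin held only 24 peaks and met 0.0186% of all LDB1 peaks, so this 0 is not particular to the sites. Of the 505 sites with LDB1 in untreated SMC3-AID cells, 435 (86.1%, 82.9 to 88.9) also had an LDB1 peak after auxin. The share was 83.1% (82.2 to 84.0) for LDB1 peaks without CTCF and 83.3% for all LDB1 peaks found in the untreated set. The odds ratio of 1.26 (0.974 to 1.64, adjusted exact p = 0.133) did not pass the threshold, and stratified by RAD21 and YY1 it was 0.953 (0.725 to 1.25). Counted without the condition on the untreated set, LDB1 was present after SMC3 degradation at 459 sites (57.8%) and at 59% of all LDB1 peaks. Of the 289 sites without LDB1 in untreated SMC3-AID cells, 24 (8.30%, 5.64 to 12.1) had it only after auxin, near the 9.41% of all such LDB1 peaks.

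LDB1 was also kept at most of the sites that had carried RAD21. Of the 231 sites with RAD21 in untreated SMC3-AID cells, 151 had LDB1 there and 136 of these (90.1%, 84.3 to 93.9) kept it. Of the 563 sites without RAD21 there, 354 had LDB1 and 299 (84.5%, 80.3 to 87.9) kept it. By the RAD21 set of LDB1-AID cells, 86.8% of sites with and 84.7% of sites without RAD21 were kept (odds ratio 1.19, 0.692 to 2.04, adjusted exact p = 0.706). By YY1, the sites kept were 138 of 147 (93.9%, 88.8 to 96.7) with YY1 and 297 of 358 (83.0%, 78.7 to 86.5) without. The odds ratio for YY1 was 3.15 (1.52 to 6.52), from a comparison that was added later and has no adjusted p among the 16. Among LDB1 peaks without CTCF it was 2.05 (1.71 to 2.45), and the difference between these odds ratios did not pass the threshold (Breslow-Day chi-square test, adjusted p = 0.308).

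At the 435 sites present before and after SMC3 degradation, LDB1 showed no common shift relative to CTCF. Its midpoints were a median of 20 bp apart, and the median distance to CTCF was 193 bp in both lists. LDB1 was closer to CTCF after auxin at 214 sites, farther at 211 and at the same distance at 10.

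Degradation of LDB1 left an LDB1 peak at 82 of the 794 sites (10.3%, 8.40 to 12.6), where 7.77% of all LDB1 peaks were left. A remaining peak was more frequent where YY1 was present. LDB1 was left at 43 of 217 sites with YY1 (19.8%, 15.1 to 25.6) and at 39 of 577 without (6.76%, 4.98 to 9.11), an odds ratio of 3.41 (2.14 to 5.43, adjusted exact p = 1.40e-06), and 3.15 when stratified by RAD21. RAD21 gave 12.1% (9.61 to 15.1) against 6.61% (4.17 to 10.3), an odds ratio of 1.94 (1.11 to 3.39, adjusted exact p = 0.0473). That call ended when stratified by YY1 (odds ratio 1.57, Mantel-Haenszel chi-square test, adjusted p = 0.187). It also ended when an overlap of 200 bp was required (odds ratio 1.65, adjusted exact p = 0.212). The comparison by distance to CTCF did not pass the threshold, with 13.8% left within 100 bp and 9.24% farther away (odds ratio 1.58, 0.959 to 2.59, adjusted exact p = 0.133).

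By class, LDB1 was left at 4.65% of the 215 sites with neither protein, 8.01% of the 362 with RAD21 only, 16.7% of the 42 with YY1 only and 20.6% of the 175 with both. The same classes of LDB1 peaks without CTCF gave 3.08%, 14.9%, 9.81% and 29.0%. Among the sites, the 82 left were also seen more often in the other subline. This comparison is not given here for LDB1 peaks without CTCF, so it shows no difference from them. LDB1 was in the untreated SMC3-AID set at 67 of the 82 sites (81.7%, 72.0 to 88.6) and at 438 of the other 712 (61.5%, 57.9 to 65.0). Peak strength is not in the lists, so its part in these shares was not tested.

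**Figure D5:**
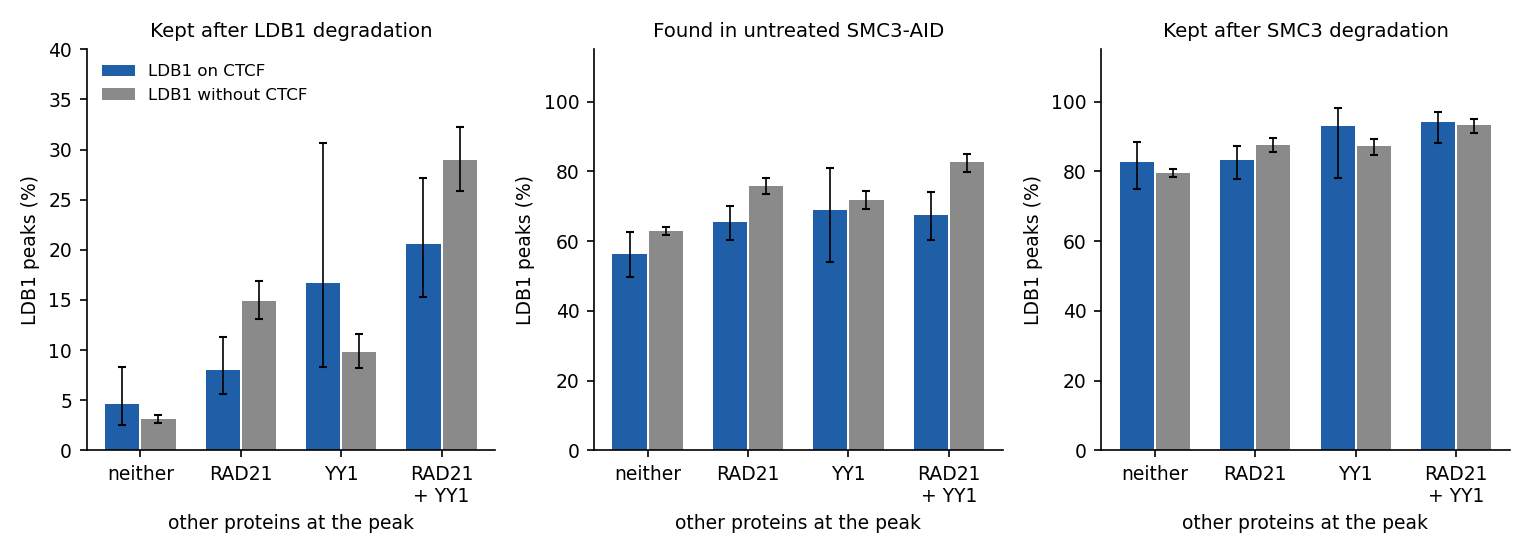
Share of LDB1 peaks left after LDB1 degradation, found in untreated SMC3-AID cells, and kept after SMC3 degradation among those found, for the 794 sites on CTCF (blue) and the 9935 LDB1 peaks without CTCF (grey), by presence of RAD21 and YY1; bars are Wilson 95% intervals. Sites with both proteins are left most often after LDB1 degradation (20.6%), and more than 80% of found sites in every class are kept after SMC3 degradation.

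The LDB1 list of auxin-treated LDB1-AID cells held 118 peaks on CTCF among 1043 (11.3%, 9.53 to 13.4). Of these 118, 86 overlapped an untreated LDB1 peak (72.9%, 64.2 to 80.1) and 32 did not, where 80.2% of all 1043 overlapped one. CTCF was at 15.5% (11.2 to 21.0) of the 207 peaks without untreated LDB1 and at 10.3% (8.41 to 12.5) of the 836 with it. Over all 1043, 47.7% overlapped YY1 and 54.7% overlapped RAD21. Among the 32, YY1 was present at 22 (68.8%, 51.4 to 82.0) and RAD21 at 21 (65.6%, 48.3 to 79.6), and 1 was in the LDB1 set of untreated SMC3-AID cells. The share of the 207 in that SMC3-AID set is not given here, so this count shows nothing particular to the 32. Among the 86, YY1 was at 54.7% (44.2 to 64.7) and RAD21 at 81.4% (71.9 to 88.2).

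Sites on CTCF had close LDB1 neighbours about as often as other LDB1 peaks. Another LDB1 peak lay within 25 kb of 62.3% of them (58.9 to 65.6), the same as the 62.3% of LDB1 peaks without CTCF and the 62.3% of all LDB1 peaks (odds ratio 1.0, 0.862 to 1.16, adjusted exact p = 1). They made up 7.40% of LDB1 peaks standing alone, 8.04% of those in pairs, 7.18% in chains of 3 to 4 and 6.61% in chains of 5 or more, where a chain links LDB1 peaks at most 25 kb apart. At the ends of chains of 3 or more they were 7.29% of LDB1 peaks and inside such chains 6.65%, with overlapping intervals (6.24 to 8.51 and 5.63 to 7.84). A site had a median of 6 other CTCF peaks within 50 kb, and an LDB1 peak without CTCF a median of 5. The share of LDB1 peaks that lay on CTCF ranged from 5.13% (2.81 to 9.18) on chromosome X to 9.51% (6.98 to 12.8) on chromosome 16.

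Most sites stood apart from one another. Linked at 25 kb, 712 stood alone, 35 groups held 2 and 4 groups held 3. Coordinates are in mm9, counted from 1, and genes at these positions were not analysed here. The first group of 3 in genome order lay on chr2:172843489-172864124 (20.6 kb), where LDB1 was 149 to 232 bp from CTCF, RAD21 was at all 3 sites and YY1 at none. All 3 were found in untreated SMC3-AID cells, 2 of them also after SMC3 degradation, and none was left after LDB1 degradation. The second, on chr8:87223799-87227752, packed 3 sites into 3.95 kb. Its middle site carried RAD21 and YY1 and was present in every LDB1 list, while its outer sites were absent from the SMC3-AID lists and from the list after LDB1 degradation. The third lay on chr12:78110415-78126752 (16.3 kb), with RAD21 at all 3 sites and YY1 at 1, and no site was in the LDB1 lists after either degradation.

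Individual sites showed how far the classes differed. In all, 31 sites (3.90%) were in all 5 of the RAD21, YY1, LDB1-after-LDB1-degradation and both SMC3-AID LDB1 sets, and 80 (10.1%) were in none of them. The commonest combination, at 170 sites (21.4%), was RAD21 without YY1, LDB1 in both SMC3-AID sets and no peak after LDB1 degradation. Shares of these combinations over all LDB1 peaks are not given here. The counts therefore describe the sites and show no difference from other LDB1 peaks. Of the 31, the site closest to CTCF was chr17:19025179-19025578, with its midpoint 4 bp from that of CTCF. It was followed by chr3:137620821-137621220 (22 bp), chr1:13144689-13145088 (28 bp), chr19:33175916-33176315 (35 bp) and chr6:66297246-66297645 (44 bp). RAD21 was also present in untreated SMC3-AID cells at the sites on chromosomes 17, 1 and 19, and at none of the 5 after auxin.

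The closest sites without RAD21 and without YY1 lay nearly centred on CTCF. At chr16:91480751-91481150 the LDB1 and CTCF intervals were identical, and the site was in none of the other sets. At chrX:11889596-11889995 and chr2:150863407-150863806 the midpoints were 1 and 2 bp apart. RAD21 and YY1 were not called at either site, and LDB1 was found in SMC3-AID cells both untreated and after auxin. At the far end, chr4:33074014-33074413 and chr11:116942357-116942756 lay 398 bp and chr11:11642611-11643010 lay 397 bp from CTCF. RAD21 was called at the latter 2 and not at the site on chromosome 4. That site was the only 1 of the 3 present in the SMC3-AID LDB1 list after auxin, and none of the 3 was left after LDB1 degradation.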

How the data were processed

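The 9 peak sets were used as deposited by the authors, as interval coordinates in bp. They hold no values other than positions. The submitters' processing notes name Bowtie2, MACS2 2.2.9.1, deepTools 3.5.1 and mm9, without a role for each. The calling threshold, the filters and the rule that combined replicates are not given in the sources used here, and depth is unknown. The sets cover 22 of 65 samples in 29 groups, taken from the sample titles. The other samples were not analysed here.

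Peaks on chromosomes 1 to 19 and X were compared with Python 3.11.15, numpy 2.4.6 and scipy 1.17.1. Peaks sharing at least 1 bp counted as overlapping. Shares have Wilson 95% intervals. Odds ratios were tested by Fisher's exact test, two-sided. Stratified values are Mantel-Haenszel odds ratios (statsmodels 0.14.6), and differences between odds ratios used the Breslow-Day test. Ratios of peak numbers have 95% intervals from counting error. Overlap counts were tested on simulated data, and 7 of them matched bedtools.

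Sites, comparisons and the rule for named regions were chosen with earlier results of these data known. That rule took the first 3 of the groups with the most sites, the 5 sites nearest CTCF among those in all 5 follow-up sets, the 3 nearest without RAD21 and YY1, and the 3 farthest. No sequence or gene annotation of mm9 was used here, so the planned CTCF and GATA motif results were not run. Alternatives were other overlap rules (at least 200 bp, midpoints within 500 bp, gaps up to 1 kb), autosomes only, other distances, stratification, and 6 chosen after seeing the data.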

Additional observations from a re-analysis of the deposited data

Results flagged for a closer look

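The odds ratio of RAD21 for an LDB1 peak left after LDB1 degradation differed between sites on CTCF and other LDB1 peaks. It was 1.94 (1.11 to 3.39) on CTCF and 5.86 (5.02 to 6.83) elsewhere, and a test of the difference itself gave an adjusted p of 0.000591 (Breslow-Day chi-square test, over 6 such comparisons). The sites were chosen with a related result known, so this is no independent support. The RAD21 groups are also not alike. Where RAD21 was present, its midpoint lay within 100 bp of LDB1 at 43.2% of the sites and at 61.7% of other LDB1 peaks. The part of this in the difference was not tested. The other 5 comparisons, of RAD21 and YY1 with the remaining LDB1 sets, had adjusted p of 0.0867 or more. For YY1 and LDB1 degradation the odds ratios were 3.41 and 3.93 (Breslow-Day chi-square test, adjusted p = 0.567).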

How the results depend on the processing

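Of 90 alternative values for 20 results, 75 kept their direction and their side of the threshold (counts and medians moved little). The values that did not are given here, and the cause was not tested unless stated. Requiring 200 bp in common left 411 sites with a median offset of 106 bp. With midpoints within 500 bp the median was 228.5 bp, and with gaps up to 1 kb there were 2120 sites. These follow from the overlap rule itself. Several odds ratios crossed 1. YY1 at the sites against other LDB1 peaks, stratified by RAD21, was 0.895. A near offset and RAD21 gave 1.35 with near taken as at most 200 bp, and a near offset and YY1 gave 0.957 with midpoints within 500 bp. LDB1 kept after SMC3 degradation, sites against other LDB1 peaks, gave 0.953 when stratified and 0.95 over all LDB1 peaks. Another LDB1 peak within 25 kb gave 0.907 (200 bp in common), 0.980 (midpoints within 500 bp) and 0.989 (autosomes). LDB1 found in untreated SMC3-AID cells passed the threshold when stratified, at 0.632, by RAD21 classes that are not alike on and off CTCF. RAD21 and LDB1 left after LDB1 degradation no longer passed it with 200 bp in common (1.65) or stratified by YY1 (1.57). No paired analysis was possible because the deposited sets combine the replicates. Leaving out replicates could not be done for the same reason. Depth and peak strength are unknown, so absence from a set may mean a peak below the calling limit.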
